A study of Drosophila melanogaster with 50 samples.

Results

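The regions described here are the H3K9me2 peaks of control ovaries that have no counterpart in the peak list of Kdm3 germline knockdown (GLKD) ovaries of Drosophila melanogaster. They were selected on the measured peaks themselves. A control H3K9me2 peak was taken when it shared not even 1 bp with any H3K9me2 peak of Kdm3 GLKD ovaries and was under 10 kb wide. This rule took 1151 of the 3983 control peaks, called members here. Without the limit on width 1155 control peaks, or 29% of the list, overlapped no Kdm3 GLKD peak, and since the rule made this contrast, the count is only its description. The 2571 control peaks under 10 kb that did overlap a Kdm3 GLKD peak, called kept peaks, are given beside them.

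In Kdm3 GLKD females a short hairpin RNA against Kdm3, a histone demethylase gene, is driven in germ cells by the nos promoter through GAL4. Their control sisters are wild type for Kdm3, and both were raised untreated at 25°C. Whole ovaries were used, so germ cells and somatic follicle cells were pooled, while the hairpin acts in germ cells. The driver line has a w[1118] background, the study's tester locus is the transgene cluster BX2, and the labels give neither the age of the females nor which libraries carried BX2. Chromatin immunoprecipitation followed by sequencing (ChIP-seq) was made with 3 libraries per genotype for H3K9me2, 3 for H3K9me3 and 2 for Rhino, and ovary RNA and small RNA with 3 libraries per genotype. The embryo tables used for levels compare the progeny of Kdm3 GLKD and of white (w) GLKD mothers, at 0 to 2 h for small RNA and 3 to 5 h for RNA and small RNA, with 2 libraries per group.

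Methylation of lysine 9 of histone H3 (H3K9me2 and H3K9me3) marks heterochromatin, the compact and mostly silent part of the genome that holds transposons and other repeats. In the Drosophila female germline these marks are also deposited on transposon copies under the guidance of piRNAs, small RNAs bound by PIWI proteins. Rhino (Rhi), a germline relative of heterochromatin protein 1, binds H3K9 methylation at the dual-strand piRNA clusters, the loci from which many piRNAs are made.

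On every arm the member with the largest fold enrichment over input, given as fold, lay beside a gene start. On 3R the strongest member was chr3R:13660687-13661171 (fold 3.09), whose nearest gene start, 140 bp away, was that of B52, which encodes a splicing factor. On X it was chrX:20510807-20511476 (fold 3.00), 68 bp from the start of CG1812. On 2L it was chr2L:15038919-15039362 (fold 2.99), 58 bp from the start of CIAPIN1, a gene of cytosolic iron-sulfur cluster assembly. On 3L it was chr3L:2586707-2587346 (fold 2.98), 110 bp from the start of RpL8, a ribosomal protein gene. On chromosome 4 it was chr4:466870-467324 (fold 2.62), 42 bp from the start of Taf3, which encodes a subunit of the general transcription factor TFIID. All of these lay between genes and had starts of both strands within 500 bp.

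The middle 300 bases of these 5 members are shown because their composition recurs among the members beside gene starts, with every run of at least 10 A or T letters in capitals, from the plus strand of release 6 (dm6) at chr3R:13660779-13661078, chrX:20510992-20511291, chr2L:15038991-15039290, chr3L:2586877-2587176 and chr4:466947-467246.
3R, beside B52: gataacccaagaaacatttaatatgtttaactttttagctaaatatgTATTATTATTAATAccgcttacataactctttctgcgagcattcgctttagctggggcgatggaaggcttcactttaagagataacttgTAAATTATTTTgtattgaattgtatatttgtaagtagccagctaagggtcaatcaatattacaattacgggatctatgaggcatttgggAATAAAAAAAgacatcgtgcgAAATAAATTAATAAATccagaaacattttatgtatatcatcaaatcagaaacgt
X, beside CG1812: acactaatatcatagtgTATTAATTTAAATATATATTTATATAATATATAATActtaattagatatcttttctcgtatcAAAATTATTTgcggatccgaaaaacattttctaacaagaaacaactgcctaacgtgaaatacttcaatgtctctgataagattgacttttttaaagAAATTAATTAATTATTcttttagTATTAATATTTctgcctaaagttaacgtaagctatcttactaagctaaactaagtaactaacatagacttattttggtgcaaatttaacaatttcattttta
2L, beside CIAPIN1: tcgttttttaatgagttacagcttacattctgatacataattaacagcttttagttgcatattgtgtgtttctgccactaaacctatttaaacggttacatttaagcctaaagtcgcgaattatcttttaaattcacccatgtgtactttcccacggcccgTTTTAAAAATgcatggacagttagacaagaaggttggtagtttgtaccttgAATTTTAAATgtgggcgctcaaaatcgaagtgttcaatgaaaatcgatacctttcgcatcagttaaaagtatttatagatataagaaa
3L, beside RpL8: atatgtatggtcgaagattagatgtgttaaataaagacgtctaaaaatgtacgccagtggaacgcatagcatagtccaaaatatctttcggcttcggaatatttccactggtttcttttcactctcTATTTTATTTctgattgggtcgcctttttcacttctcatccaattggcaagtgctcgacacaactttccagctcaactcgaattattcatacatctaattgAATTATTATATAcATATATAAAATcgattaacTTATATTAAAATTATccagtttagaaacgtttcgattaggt
4, beside Taf3: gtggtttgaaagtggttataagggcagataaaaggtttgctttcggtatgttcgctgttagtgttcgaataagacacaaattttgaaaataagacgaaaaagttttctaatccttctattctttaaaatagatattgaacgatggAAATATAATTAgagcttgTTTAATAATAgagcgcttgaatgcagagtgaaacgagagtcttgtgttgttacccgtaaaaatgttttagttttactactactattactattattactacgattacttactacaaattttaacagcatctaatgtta
Their G+C content was 30.7%, 22.7%, 33.7%, 33.0% and 30.3%, in the order printed. The longest run without G or C was 36 letters, in the X sequence. Such runs made up 24.3% of that sequence, against 6.67% of the 2L sequence.

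Every peak list is 1 list per mark and genotype, and no value per library was available, so peaks present and absent are compared by counts without a test. The Kdm3 GLKD H3K9me2 list was the longer, with 9564 peaks over 44185495 bp, against 3983 peaks over 28029688 bp in the control list. For H3K9me3 the lists held 5282 peaks in Kdm3 GLKD and 2946 in control ovaries, and for Rhino 1882 and 467. Peaks of both methylation marks were weaker over input in Kdm3 GLKD. The median fold of H3K9me2 peaks was 1.56 in Kdm3 GLKD and 1.75 in control ovaries, with maxima of 2.86 and 4.49. For H3K9me3 the medians were 1.56 and 1.77 and the maxima 4.18 and 5.15. How far this weaker enrichment accounts for absent peaks was not tested. In the ovary RNA table the germline markers vas, osk, aub, bam and nos had base means of 9108, 56255, 4821, 1490 and 112. The follicle cell markers Yp1, Vm26Aa, Fas3 and tj had 30983, 4951, 3946 and 1690. Of the markers of other tissues, the muscle gene Mhc had 2360, above bam and tj, the gut gene Jon65Aiv 138, the photoreceptor gene ninaE 20.8 and the testis genes Mst87F and Mst84Da 0.965 and 0. Their part in the values given here was not tested. A base mean averages the normalized counts of all libraries of a table, Kdm3 GLKD and control together, so it gives a level and no difference between genotypes, and the loss of Kdm3 RNA itself cannot be read from it.

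Members were narrow and moderately enriched. Their width was 521 bp at the median (range 200 to 9770), against 1646 bp for kept peaks. Their fold enrichment over input was 1.53 at the median (range 1.14 to 3.09), against 1.83 for kept peaks (range 1.20 to 4.49). The −log10 q-value, the peak caller's measure of how far a peak stands above input, was 4.30 and 9.69 at the median. Over the whole H3K9me2 lists its median was 3.66 in Kdm3 GLKD and 7.91 in control ovaries. Members covered 1617258 bp in all, and kept peaks 6625865 bp. The gap from a member to the nearest Kdm3 GLKD H3K9me2 peak was 4451 bp at the median, with 174 members within 1 kb of one. The closest member, 215 bp wide at chr3R:25593813-25594027 within msi and ymp, lay 7 bp from a Kdm3 GLKD peak, and the kept peak with the least overlap, over tara, shared 1 bp with one. At the limit on width, the widest member had 9770 bp and the narrowest peak left out 10154 bp.

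Where the members lie sorted them into 5 classes, chosen after the values had been seen and assigned in the order given. Of the 1151 members, 30 lay in the histone gene repeats of arm 2L, 267 others were covered to at least 50% by annotated transposon copies, 508 others had an annotated gene start within 500 bp, 224 others overlapped a gene, and 122 lay between genes. The members beside gene starts made up 22.0% of the member length, the transposon members 46.1%, and the histone members 5.12%. Kept peaks under 10 kb were 551 over transposon copies, 801 beside gene starts, 975 within genes and 244 between genes, with 0 in the histone repeats. The strongest members were those beside gene starts, which held 131 of the 148 members with a fold of at least 2. The plot of width against fold shows these narrow strong peaks apart from the wide and weak peaks over transposon copies.

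**Figure D1:**
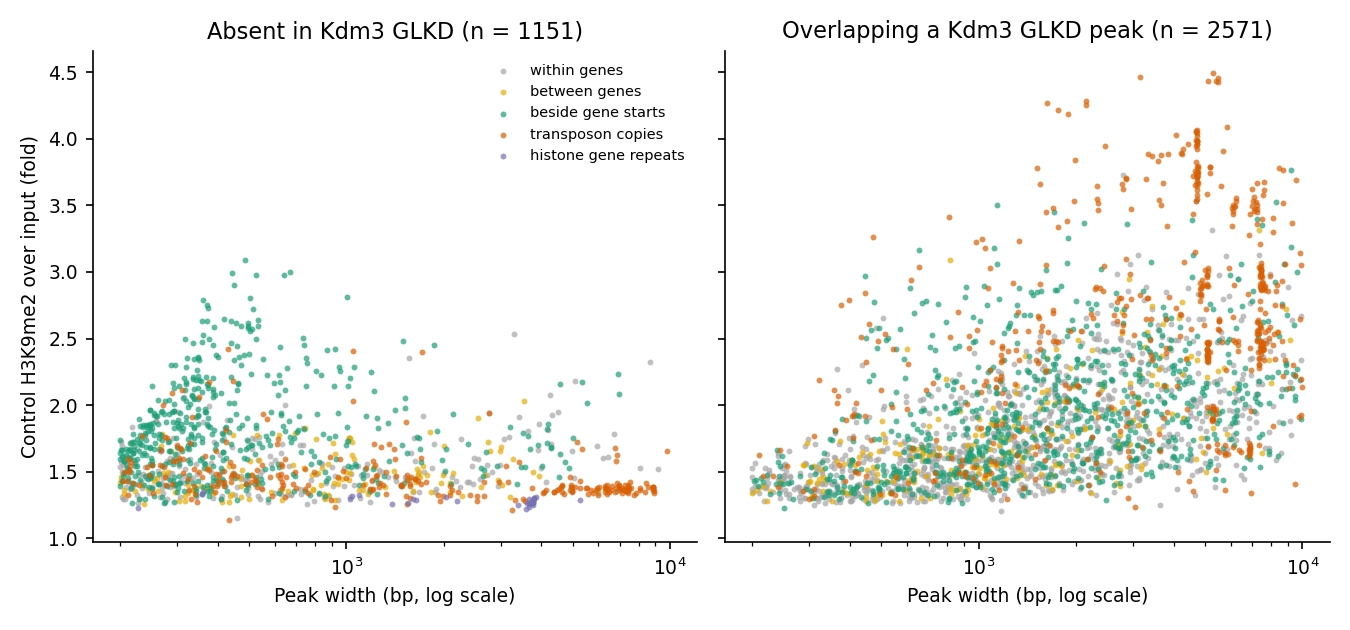
Width in bp (log scale) and fold over input of each control H3K9me2 peak under 10 kb, coloured by where it lies, for the 1151 peaks absent in Kdm3 GLKD ovaries and for the 2571 kept peaks. Absent peaks reach a fold of 3.09, the strongest of them narrow and beside gene starts, while kept peaks reach 4.49 and widen as they strengthen.

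All 6 arms held members, but not in the proportions of the kept peaks. There were 305 members on 3R, 223 on 2L, 214 on X, 206 on 3L, 185 on 2R and 18 on chromosome 4. Per Mb of arm this made 9.51 on 3R, 9.48 on 2L, 9.09 on X, 7.33 on 3L, 7.32 on 2R and 13.4 on chromosome 4, a narrow range on the large arms. Kept peaks were densest on X, at 40.9 per Mb, and on chromosome 4, at 37.8 per Mb, against 13.0 to 16.5 per Mb on the other arms. Of all control peaks on X, 17.3% overlapped no Kdm3 GLKD peak, against 40.5% of those on 3R. Chromosome 4, a small and largely heterochromatic chromosome, had 17.8%.

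The members beside gene starts were led by those printed above on every arm but 2R, and the second strongest of the arms were of the same kind. They lay beside the starts of BOD1 on 3R (fold 2.98), Sf3b3 on 3L (2.81), CG13220 on 2R (2.79), Graf on X (2.76), NTPase on 2L (2.59) and ND-49 on chromosome 4 (2.45). Sf3b3 encodes a subunit of the spliceosome and ND-49 a subunit of mitochondrial complex I. The strongest member of 2R, at chr2R:9109743-9110744 (fold 2.81), lay 25 bp from the start of Pgm2a, which encodes a phosphoglucomutase. All 12 of these members had starts of both strands within 500 bp.

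Narrow members beside gene starts lay mostly on the upstream side. Of the 769 members under 1 kb, 454 had a gene start within 500 bp, against 265 of 826 kept peaks of that width. Leaving out those over transposon copies or in the histone repeats, 432 narrow members and 253 narrow kept peaks stood beside starts. The middle of the peak lay upstream of the nearest start for 80.3% of these members and 43.1% of these kept peaks, at a median of -241.5 bp for members and 76.0 bp for kept peaks. Only 85 of the 432 members ran over the start itself, against 104 of 253 kept peaks. Starts of both strands lay within 500 bp of 60.9% of the members and 30.8% of the kept peaks. The profile around gene starts has members over the position 260 bp upstream in 70.4% of cases and over the start in 19.7%, while kept peaks were there in 39.5% and 41.1% of cases.

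These narrow members were poor in G and C. Their median G+C content was 30.3%, against 44.9% for the narrow kept peaks beside starts, and the arms together had 42.1%. In windows of up to 300 bases from the middle of each peak, 87.0% of the narrow members beside starts held a run of at least 10 A or T letters, against 53.8% of such kept peaks. The 300 bases before the starts of all 13945 protein-coding genes had a median G+C content of 37.0% and held such a run in 76.9% of cases. Over all classes, 593 of the 1151 members and 272 of the 2571 kept peaks had a G+C content under 35%. Base composition thus moved with the absence of a peak, and its part in the absence was not tested. Without the members under 35% G+C, 558 members were left.

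The genes nearest all 508 members beside gene starts, of any width under 10 kb, were well represented in ovary RNA. The 801 kept peaks beside starts were wider, with a median of 1601 bp against 372.5 bp for these members, and genes beside narrow kept peaks were not taken separately. Of the 508 nearest genes 466 were protein-coding, and their base mean per kb of exon was 869 at the median (quartiles 333 and 1789). The 669 protein-coding genes nearest to kept peaks beside starts had 17.3 (quartiles 2.75 and 351), and all 13894 listed protein-coding genes 118 (quartiles 2.79 and 891). Protein-coding genes with a divergent start within 1 kb, whatever the peaks, had 701 (quartiles 189 and 1433). The genes named above ranged from 492 for BOD1 to 10327 for RpL8, and Sf3b3 had 3339, Taf3 3017, ND-49 2516, Pgm2a 2068, B52 1839, Graf 1202, CG1812 1191 and CIAPIN1 587. All of them exceeded the median of all protein-coding genes. In RNA of embryos of 3 to 5 h, a table normalized separately, the same 466 genes had a median of 510 per kb, against 27.1 for those nearest to kept peaks. All protein-coding genes had 78.6 there, and those with a divergent start within 1 kb had 360.

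**Figure D2:**
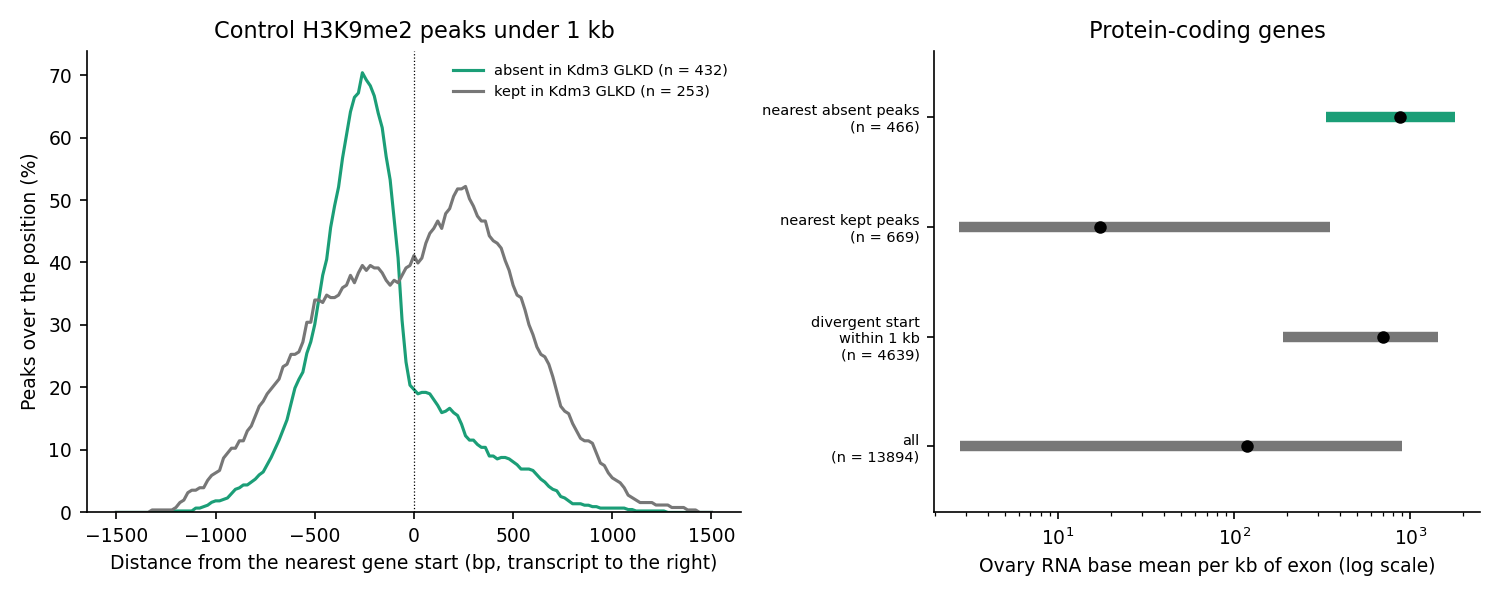
Left, the percentage of control H3K9me2 peaks under 1 kb beside gene starts that cover each position around the nearest start, for 432 peaks absent in Kdm3 GLKD and 253 kept peaks, and right, the ovary RNA base mean per kb of exon (log scale) of protein-coding genes, with points for medians and bars for quartiles. Absent peaks under 1 kb crowd upstream of the start, at 70.4% of cases 260 bp before it. On the right, peaks beside starts of any width under 10 kb were used. Genes nearest absent peaks have a median of 869 per kb, against 17.3 for those nearest kept peaks.

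H3K9me3 was mostly absent from the members in Kdm3 GLKD ovaries as well. An H3K9me3 peak of Kdm3 GLKD ovaries overlapped 130 members (11.3%), and one of control ovaries overlapped 567 (49.3%). The background over all control H3K9me2 peaks was 51.2% for the Kdm3 GLKD list and 58% for the control list. Among kept peaks under 10 kb the counts were 1656 (64.4%) and 1484 (57.7%). Of the members, 125 had H3K9me3 in both lists, 5 in the Kdm3 GLKD list alone, 442 in the control list alone and 579 in neither. By length, Kdm3 GLKD H3K9me3 peaks covered 112556 bp of the members and control ones 678517 bp. The lists of both marks within a genotype were called against the same input library, so the members' H3K9me2 and H3K9me3 are not independent readings of the chromatin.

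The difference between the lists held in every class of width. With Kdm3 GLKD given first, H3K9me3 was found on 6.62% and 33.1% of members under 500 bp, on 15.2% and 52.9% of those from 500 bp to under 1 kb, and on 20.3% and 60.8% of those from 1 kb to under 2 kb. For members from 2 kb to under 5 kb the shares were 13.1% and 66.4%, and for the widest class 12.6% and 96.6%. In the same classes of kept peaks the Kdm3 GLKD share was 33.9%, 39.2%, 61.6% and 80.4%, with 422 of the 444 widest, and the control share 23.4%, 32.2%, 51.5% and 75.2%, with 417 of the widest. By place, transposon members had an H3K9me3 peak in 13.9% of cases in Kdm3 GLKD and 90.6% in control ovaries, members beside gene starts in 8.46% and 37.0%, members within genes in 12.5% and 39.3%, and members between genes in 18.0% and 40.2%. On chromosome 4 the counts were 10 and 14 of 18 members.

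**Figure D3:**
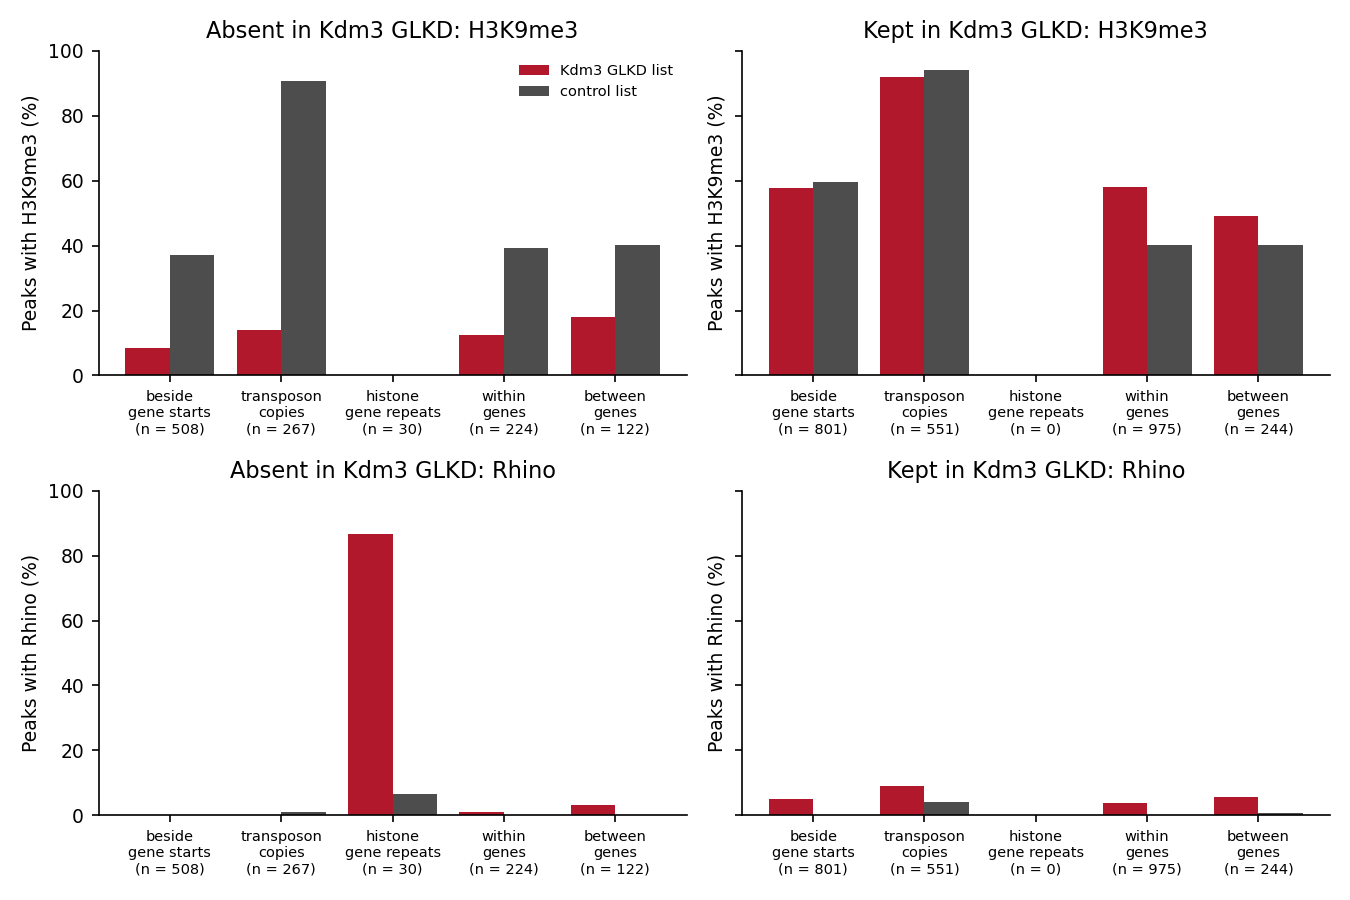
Percentage of control H3K9me2 peaks that overlap an H3K9me3 peak (top) or a Rhino peak (bottom) of the Kdm3 GLKD list and of the control list, by class of place, for peaks absent in Kdm3 GLKD (left) and kept peaks (right). H3K9me3 on absent transposon peaks was at 13.9% in Kdm3 GLKD and 90.6% in control, and Rhino on absent peaks of the histone repeats at 86.7% and 6.67%.

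H3K9me3 peaks of Kdm3 GLKD ovaries covered at least 50% of the length of 8.17% of members. The longest overlap was in chr2L:18302846-18306603, a region between genes next to lncRNA:CR43353, with all of its 3758 bp under an H3K9me3 peak of fold 1.63 in Kdm3 GLKD and 1.81 in control ovaries. The next was chr3R:10343163-10348518, 5356 bp of a copy of the retrotransposon 297, of which 3672 bp were covered in Kdm3 GLKD ovaries (fold 1.47, and 1.78 in control ovaries). Within kirre, a cell adhesion gene of the immunoglobulin family, the member chrX:3095289-3099550 had 3548 bp under an H3K9me3 peak of fold 1.72 in Kdm3 GLKD and 1.42 in control ovaries. On chromosome 4 the member over ND-49 had 722 of its 740 bp under H3K9me3 in Kdm3 GLKD ovaries, at a fold of 2.16, against 3.32 in control ovaries. Of the strongest member, beside B52, 400 of the 485 bp lay under H3K9me3 in Kdm3 GLKD (fold 2.11) and all 485 bp in control ovaries (fold 3.44), so its H3K9me3 was called in both lists where its H3K9me2 was not.

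Transposon copies covered 46.6% of the member length and 35.5% of the kept length, against 5.41% of the arms. By number, 308 members (26.8%) and 721 kept peaks (28.0%) overlapped a copy. The families differed. The LTR retrotransposon roo alone made up 39.2% of the member length and 0.933% of the kept length under 10 kb. Of the 1044840 bp of annotated roo copies, 645600 bp (61.8%) lay under members. For all other families together it was 124510 of 7176610 bp (1.73%), led by 297 with 40468 bp, the foldback element FB with 28546 bp and HB with 9394 bp. FB had 44.5% of its length under members, and the numerous short INE-1 copies had 1.58%.

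Long roo copies lay mostly under H3K9me2 in control ovaries and mostly outside it in Kdm3 GLKD ovaries. Of the 85 copies over 8 kb, 4 were covered to at least 50% by H3K9me2 peaks in Kdm3 GLKD ovaries and 83 in control ovaries. For H3K9me3, called against the same inputs and so not independent of the rule, the numbers were 5 in Kdm3 GLKD and 38 in control ovaries. Some H3K9me3 peak touched 21 and 83 copies. Members covered at least 50% of 71 of these copies. The 189 members lying to at least 50% in roo of any length had a fold of 1.39 at the median, and an H3K9me3 peak in 10 cases in Kdm3 GLKD and 176 in control ovaries. Members in other families numbered 80, with a median fold of 1.58 and H3K9me3 in 27 and 66 cases. Among 501 copies of other families over 5 kb, 373 were covered to at least 50% by H3K9me2 in Kdm3 GLKD and 478 in control ovaries, and 445 and 477 by H3K9me3. This pool held unlike families. With copies of any length and Kdm3 GLKD first, such H3K9me2 cover was on 6 and 34 of 35 copia copies. It was on 19 and 78 of 88 copies of 297, and 4 and 22 of 24 of Burdock. For Doc it was 65 and 67 of 69, for opus 35 and 36 of 37, and for blood 24 and 24 of 25. Members touched 0 copia copies, since the rule keeps a peak at any overlap. Copies of a family share sequence, so reads cannot always be placed in one of them and the copies are not independent.

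Peak coverage changed at the borders of the copy. In the profile along long roo copies, control H3K9me2 peaks lay over 97.6% of copies 5 kb from the 5′ end, against 4.71% for Kdm3 GLKD peaks. At 1 kb outside the copy, counting both sides of each copy as 170 flanks, H3K9me2 peaks lay over 24.1% of flanks in Kdm3 GLKD and 14.7% in control ovaries. For H3K9me3 the flanks were covered in 12.9% and 9.41% of cases. Over all arms H3K9me2 peaks covered 33.0% of the length in Kdm3 GLKD and 20.9% in control ovaries, so the flanks lay under peaks less than the arms in both lists and in the same order, while the copies stood in the opposite order. Control H3K9me2 was thinner 1.3 kb from the 5′ end, where 30.6% of copies lay under a peak, against 2.35% in Kdm3 GLKD ovaries.

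**Figure D4:**
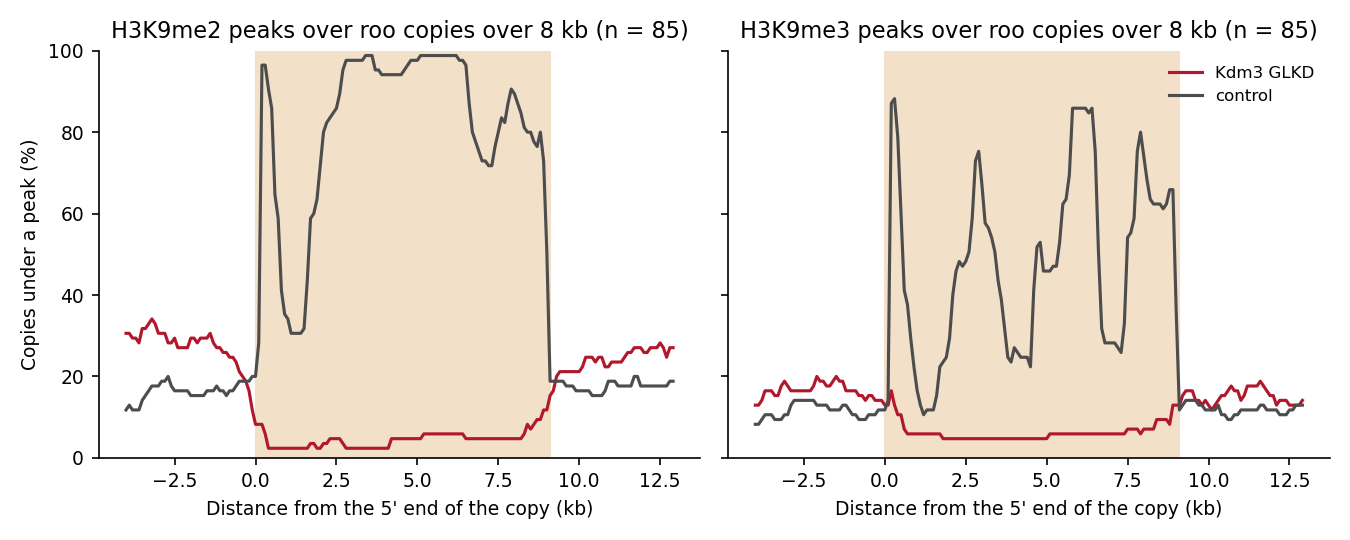
Percentage of the 85 roo copies over 8 kb under an H3K9me2 peak (left) or an H3K9me3 peak (right) at each distance in kb from the 5′ end of the copy, for the Kdm3 GLKD and control lists, with the median copy length of 9098 bp shaded. Over the copy the Kdm3 GLKD lines stay low, with H3K9me2 at 4.71% and control at 97.6% at 5 kb, and 1 kb outside it H3K9me2 lies over 24.1% of flanks in Kdm3 GLKD and 14.7% in control.

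Roo members lay in introns and between genes. Of the 189 members in roo, 126 touched only introns of annotated genes and 57 lay between genes, while genes cover 69.5% of the arms. The place of roo copies outside members was not counted, so these numbers describe the members only. Several of the genes with the most members held roo copies. CG42747 on 3L had 7, of which 6 lay over the copy roo{}1708, with 20061 bp under members, and Acox3 on 2L, an acyl-CoA oxidase gene, had 4 over neighbouring roo copies, which placed 64.5% of its span under members. CG31038 had 4 over a single roo copy. AstA-R1, which encodes a receptor for the neuropeptide allatostatin A, had 5, 4 of them touching roo copies, and RYa-R, the RYamide neuropeptide receptor gene, had 4. The widest member, chr3R:27009547-27019316 (9770 bp, fold 1.65), ran from a roo copy in RYa-R over CG17191 and CG17192. Also among the 3 widest were chr3R:8403144-8412059 (8916 bp, fold 1.35), wholly a roo copy in CG45263, and chr2R:8510897-8520090 (9194 bp, fold 1.52), in an intron of mtt and without a copy. CG44153 on 2L also had 4 members, with no roo copy, and the further genes with 4 were kirre, KCNQ, Rbp6 and EcR, the ecdysone receptor gene.

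The histone gene repeats on 2L formed a class of their own. They carry the genes for the replication-dependent histones as tandem units, each with His1, His2A, His2B, His3 and His4. From chr2L:21404181 to 21543688 the annotation had 119 histone genes and pseudogenes, 30 members lay among them, and 110 of all 123 histone genes in the genome overlapped a member. Members here had a width of 3633 bp and a fold of 1.28 at the median (range 1.22 to 1.35), and their middles followed each other at a median of 4811 bp (range 2101 to 6273). They covered 89.4% of the length of the His1 genes, 96.2% of His2A, 97.0% of His2B, 90.8% of His3 and 89.8% of His4. No member here had an H3K9me3 peak in either list, and 2 of the 30 lay to at least 50% in roo copies within the repeats.

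Rhino peaks were found on the same repeats in Kdm3 GLKD ovaries. Over the whole span there were 85 Rhino peaks with 35301 bp in Kdm3 GLKD and 3 peaks with 781 bp in control ovaries. Their fold over input was 1.38 at the median in Kdm3 GLKD (range 1.22 to 1.60) and 1.28 in control ovaries (range 1.26 to 1.32), where the whole Rhino lists had medians of 1.78 and 1.74. Rhino lay on 26 of the 30 members in Kdm3 GLKD and on 2 in control ovaries. It touched 22 of 23 His3 genes, 21 of 22 His4, 15 of 20 His2A, 12 of 23 His2B and 19 of 23 His1 genes in Kdm3 GLKD ovaries, against 2 His1 genes in control ovaries. By length it covered 65.1% of the His3 and 55.6% of the His4 genes, against 27.5% of the His2B genes. As the units share sequence, the 26 members are no independent observations, and how much of this signal belongs to which unit cannot be told apart.

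**Figure D5:**
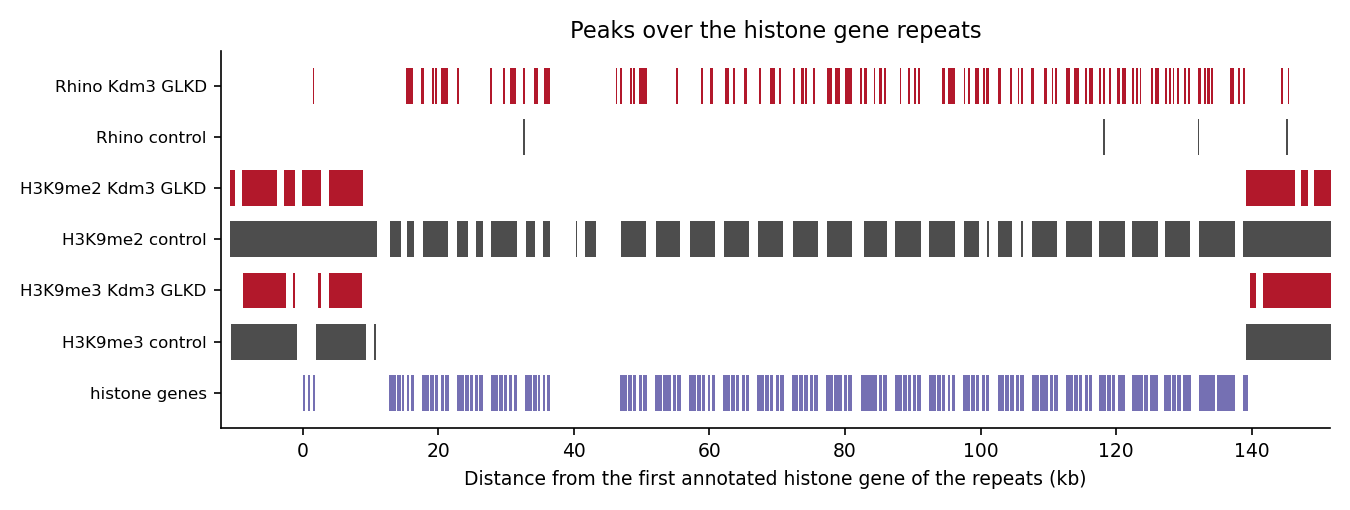
Peaks of each list (red for Kdm3 GLKD, grey for control) along the histone gene repeats, in kb from the first annotated histone gene, with the genes in purple. Rhino has 85 peaks in Kdm3 GLKD and 3 in control over the genes, while H3K9me2 peaks over the units are in the control list, as the rule demands, and H3K9me3 peaks of both genotypes lie at the outer borders.

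Members and Kdm3 GLKD Rhino peaks both lay over the intervals between divergent His4 and His3 genes. Of 22 such intervals, with a median of 183 bp, 20 lay under members, and Rhino touched 17 in Kdm3 GLKD and 0 in control ovaries. All 20 intervals between His2A and His2B lay under members, and Rhino touched 11 in Kdm3 GLKD and 0 in control ovaries. The first interval wholly under a member and under a Kdm3 GLKD Rhino peak, chosen after the values were seen, is chr2L:21419944-21420128 between His4:CG33909 and His3:CG33803, printed from the plus strand of dm6 with every GAGAG, and CTCTC on the other strand, in capitals.
His4-His3 interval: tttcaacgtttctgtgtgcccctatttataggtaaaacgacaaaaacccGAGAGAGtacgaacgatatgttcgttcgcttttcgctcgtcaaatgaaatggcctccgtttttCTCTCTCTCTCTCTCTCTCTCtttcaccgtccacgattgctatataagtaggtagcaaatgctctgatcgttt
The motif GAGAG, a core of the sequence bound by GAGA factor, was searched on both strands with overlapping matches counted, and gave 11 matches here. It occurred in 18 of the 22 intervals, and in 19.5% of windows of the same 185 bases before the starts of all protein-coding genes. Of the 22 intervals, 3 had exactly the printed sequence.

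Elsewhere Rhino was rare on members. In all, 32 members (2.78%) had a Rhino peak in Kdm3 GLKD ovaries and 6 (0.521%) in control ovaries, against backgrounds of 6.73% and 2.36% of all control H3K9me2 peaks. Without the histone repeats the Kdm3 GLKD share was 0.535% of members, a lower share than the background. That background includes peaks of 10 kb and wider, and a wider peak is touched more easily. Kept peaks under 10 kb had Rhino in 143 cases (5.56%) in Kdm3 GLKD and 26 (1.01%) in control ovaries. Among peaks under 500 bp the Kdm3 GLKD share was 0.358% of members and 3.42% of kept peaks. The 4 members with the strongest Rhino lay on 2R in the stretch without genes between Pld and lncRNA:CR46075, the position of the dual-strand piRNA cluster 42AB. Their Rhino fold in Kdm3 GLKD ovaries was 2.39, 2.34, 2.23 and 1.95, they had no control Rhino peak, and all 4 lay wholly under H3K9me3 in Kdm3 GLKD ovaries. The fifth was chr3R:5077631-5083563 over corto, a chromatin factor gene, with a Rhino fold of 1.75 in Kdm3 GLKD and no control peak. Control Rhino peaks fell on 3 roo copies, each with 209 to 227 bp and a fold of 1.63 to 1.69, and on the member over CG1894.

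Genes under members could be compared only by their level. In all, 773 of 18164 annotated genes (4.26%) overlapped a member, 682 of them protein-coding, and 1924 (10.6%) overlapped a kept peak under 10 kb. Of the members 60.9% overlapped a gene, 31.2% an exon and 15.0% a coding exon, against 79.9%, 51.7% and 38.0% of kept peaks. The ovary RNA base mean per kb of exon was 493 at the median for the 771 listed genes with a member, 46.1 for genes under kept peaks and 31.6 for all listed genes. Without the histone repeats it was 333 for genes with a member. Among protein-coding genes alone the medians were 657 with a member, 61.7 under kept peaks and 118 for all listed. Genes under kept peaks thus stood above all genes but below all protein-coding genes. The 128 genes with a transposon member, most of them long (median span 45.4 kb), had 217.

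The highest ovary RNA level among genes with a member was that of eEF1alpha1, the gene of translation elongation factor 1 alpha, with a base mean of 161117 per kb of exon and 627 bp under a member. CNBP, a nucleic acid binding protein gene, followed with 28156. Ant2 and sesB, overlapping genes of the mitochondrial ADP/ATP translocase that share 1 member of 285 bp and whose reads may not be separable, had 26099 and 18669, and mod, a nucleolar protein gene, had 17894. The 200 genes with at least 50% of their span under members had a median of 1907, and the histone genes of the repeats one of 7381. Of the 10 largest genes wholly under members, Adk1, CG30222, CG34290 and lncRNA:CR45410 had under 1 per kb, CG1894 1.77, S-Lap1 1.56 and CG6356 17.2, while cry, the cryptochrome gene, had 104 and CG4066 267. The remaining 1 was the pseudogene His-Psi:CR33867, which had 8603.

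Small RNAs of 23 to 29 nt, the size range of piRNAs, showed a similar order of levels in ovaries but not in embryos. The ovary base mean per kb of gene span was 8.37 at the median for genes with a member, 3.33 for genes under kept peaks and 2.12 for all listed genes. Without the histone repeats it was 6.71 for genes with a member. Among protein-coding genes alone the 3 medians were 9.95, 3.69 and 3.46. In embryos the medians over genes of all kinds, in the same order of groups, were 0.0431, 0.155 and 0.0933 at 0 to 2 h, and 0.0517, 0.164 and 0.152 at 3 to 5 h. Without the histone repeats genes with a member had 0.160 and 0.145 in embryos. The 5 highest genes with a member were eEF1alpha1 (840), lncRNA:CR46482 (582), His-Psi:CR33867 (507), CG43163 (320) and beat-IV (291). CG43163 has a member of 7859 bp over roo{}958, and beat-IV, an immunoglobulin family gene of the nervous system, has one of 1710 bp over Bari1{}1409, with H3K9me3 over 1663 bp in Kdm3 GLKD and all 1710 bp in control ovaries. In embryos of 0 to 2 h and 3 to 5 h CG43163 had 0.142 and 0.159, beat-IV 0 and 0, and eEF1alpha1 95.9 and 93.6. How reads of shared transposon sequence were counted in the ovary table cannot be told from its values. Levels of genes that hold copies, and their difference from embryos, may therefore include such reads. The 10 genes with the most members ranged from 6.70 in Rbp6 and 16.0 in kirre to 127 in Acox3 and 178 in CG44153, so that Rbp6 lay under the median of genes with a member. The span of kirre includes w, where the authors found more small RNA in Kdm3 GLKD and assign it to BX2. Whether such reads were counted for kirre was not tested.

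The 119 histone genes of the repeats had an ovary RNA base mean of 4384 at the median (range 217 to 7803), and a small RNA base mean of 27.1 (range 5.65 to 1013). In the small RNA tables of embryos of 0 to 2 h and of 3 to 5 h, 116 of the 119 were at 0 in each. The tables were normalized separately. The methods describe unique matches for small RNAs, while all 119 genes, many of them near-identical copies, had an ovary small RNA base mean above 0, so how reads of shared sequence were counted in the ovary table cannot be told from its values.

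Shares of other gene groups stood on both sides of the 4.26% over all genes. Members overlapped 11 of the 118 genes of chromosome 4 (9.32%), among them ci, the transcription factor of Hedgehog signaling, and ATPsynbeta, against 42 with a kept peak. Of 9 genes of H3K9 methyltransferases and HP1 proteins only HP1b had a member (11.1%). There were 44 of 1944 lncRNA genes (2.26%), 19 of 503 asRNA genes (3.78%), 1 of 260 miRNA genes (mir-193), 1 of 32 snRNA genes and 1 of 71 cuticle protein genes (Cpr73D). No member overlapped any of the 290 tRNA, 99 rRNA, 269 snoRNA, 186 odorant, gustatory and ionotropic receptor, 16 chorion and vitelline membrane or 12 Stellate genes. Kept peaks overlapped 4 tRNA, 0 rRNA, 1 snoRNA, 14 receptor, 2 chorion or vitelline membrane and 0 Stellate genes.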

How the data were processed

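H3K9me2, H3K9me3 and Rhino ChIP-seq peaks of ovaries, and RNA and small RNA of ovaries and embryos, were used as deposited. Per the sources, the authors mapped ChIP reads with BWA 0.7.17.4 to a release 6 (dm6) genome without the Y chromosome, unplaced and mitochondrial sequence, removed duplicates with Picard 2.18.2.1 and called peaks with MACS2 2.1.1.20160309.6 (q-value 0.05, extension size 200, broad cutoff 0.1 for the histone marks, narrow peaks for Rhino). How replicate libraries were combined is not given in the sources used here. The deposited peak files give a fold over input and a −log10 q-value as computed by the authors' peak caller. H3K9me2 and H3K9me3 of a genotype share an input library, and Rhino has other inputs.

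The authors mapped RNA and small RNA with Bowtie, and DESeq2 gave the deposited gene tables. Only the base mean was used, a signal the authors averaged over the normalized libraries of both groups of a table, which has no SD or n. It was divided here by the length of merged exons (RNA) or of the gene span (small RNA, 23 to 29 nt, described as unique matches). The other columns hold the authors' comparison (log2 fold change, its error, test statistic and p-values) and were not used. Depth per library is not in these files, so no counting interval was given. The number of sample columns left without a sample was 0.

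Peaks were intersected (at least 1 bp) with Python 3.11.15, numpy 2.4.6 and pandas 2.3.3. Genes came from the Ensembl annotation 115, and sequences and transposon copies from release 6 of RefSeq's genome. The interval functions were tested on simulated data. No test was made, since there is 1 list per mark and genotype and the regions were chosen on the readout. The regions and gene lists were chosen with earlier results of these data known. The 5 classes of place, the printed histone interval and the alternatives without histone repeats, roo copies or low G+C, or with another distance to gene starts, were chosen after the values were seen. Named were the strongest members of each arm, the 3 widest, the 3 with most Kdm3 GLKD H3K9me3, up to 5 with the strongest Rhino, those nearest the limits of the rule, the 10 genes with most members and the 10 with most of their span under members, and the 5 highest in ovary RNA and small RNA.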

Additional observations from a re-analysis of the deposited data

How the results depend on the processing

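The 1151 members, their marks and their places were recomputed under alternative settings, of which 11 changed the set of members. Counting each result under each setting, there were 110 values. Of these, 66 stayed within the sampling interval of the reported value (or a count within 1.5 times) and 44 moved. Such an interval treats members as independent, which roo copies and histone units are not, so it only sorts the values. No paired analysis was possible because each mark and genotype has 1 peak list, and base means pool the libraries, so no replicate could be left out either. With control peaks of a −log10 q-value of at least 5 there were 500 members, with Kdm3 GLKD Rhino on 0.4%, a gene under 51% and a transposon copy under 12.6%. With a control fold of at least 2 there were 148 members, 21.6% of them on X, with H3K9me3 on 16.2% in Kdm3 GLKD and 62.2% in control, Rhino on 0% and 0%, genes under 40.5% and copies under 9.46%. With Kdm3 GLKD peaks of a −log10 q-value of at least 5 there were 2131 members, 22.3% on X, 26.9% with Kdm3 GLKD H3K9me3 and 68.4% over a gene. Asking for no Kdm3 GLKD peak within 1 kb left 13.9% on X. A width under 5 kb gave control H3K9me3 on 45.4% and copies under 22.2%. Without the histone repeats Kdm3 GLKD Rhino was on 0.535%, and without members in roo, control H3K9me3 was on 40.6% and copies lay under 12.4%. Without members under 35% G+C there were 558, with 10.9% on X, Kdm3 GLKD Rhino on 5.20% and genes under 73.5%. Where a mark had to cover at least 50% of the member, H3K9me3 was on 8.17% in Kdm3 GLKD and 36.4% in control, and Rhino on 0.695% and 0.0869%. With mark peaks of a −log10 q-value of at least 5 they were 4.87% and 23.5% for H3K9me3, and 0.0869% for control Rhino. By share of length H3K9me3 was 6.96% in Kdm3 GLKD and 42.0% in control, and control Rhino 0.136%. At least 50% of the member lay within genes for 54.1% and within copies for 23.4%, and 96.6% of members held soft-masked bases. The median ovary RNA base mean per kb became 1907 for genes with at least 50% of their span under members, 632 with a base mean of at least 1 and 140 per kb of span. That of small RNA became 27.8 and 11.5 under the first and second of these. The causes were not tested. The share of members with H3K9me3 was lower in Kdm3 GLKD than in control under every alternative tried. As both marks of a genotype share an input, this share is not independent of the rule that chose the members.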
